A study of Mus musculus with 4 samples.

Results

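The genes of the insulin and insulin-like growth factor (IGF) signaling relay were examined in bulk RNA sequencing of mouse cerebellum. The group held 9 genes, taken by NCBI Gene ID: the ligand gene *Igf1*, the receptor genes *Insr* and *Igf1r*, the adaptor genes *Irs1* and *Irs2*, the kinase genes *Akt1* and *Akt2*, and the transcription factor genes *Foxo1* and *Foxo3*. They are 9 of the 24532 genes listed in the files. No measured value served as a criterion, but the choice was made with earlier results of these data known. Each of the 9 had a single entry per library. The study compared wild-type (WT) littermates with mice heterozygous for *Kdm3b* (*Kdm3b*+/-), the gene of a demethylase that acts on lysine 9 of histone H3. RNA was taken from vermal slices of adult male cerebellum, from which tissue rich in granule cells (GCE) was cut by hand. The design had 2 mice per group and 1 library per mouse, named here WT 1, WT 2, *Kdm3b*+/- 1 and *Kdm3b*+/- 2.

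The labels name no treatment for any of the 4 mice, and the groups differed in genotype. The mutant allele carries a gene-trap vector, pGT0lxf, within the gene, and comes from a single embryonic stem cell line (YTC406). The trap is present in every cell, so the comparison is not particular to the cerebellum or to granule cells. The line was kept by backcrossing to C57Bl/6N and later to C57Bl/6J mice. The littermates share this mixed background except around the trap, where *Kdm3b*+/- mice carry DNA of the stem cell line. How far that DNA extends is not given.

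Insulin and IGF-1 bind the receptor tyrosine kinases encoded by *Insr* and *Igf1r*. The activated receptors phosphorylate the insulin receptor substrates IRS1 and IRS2, which recruit phosphoinositide 3-kinase (PI3K). The lipid made by PI3K brings AKT kinases to the membrane, where they are activated. AKT phosphorylates FOXO transcription factors and keeps them out of the nucleus. When signaling is low, FOXO factors enter the nucleus and activate genes of cell cycle arrest, stress resistance and fuel use, and *Irs2* and *Insr* are themselves known FOXO targets. In the brain, this relay is known for its roles in neuronal survival, growth and energy use. Most of the relay works through phosphorylation and protein location, which RNA levels do not measure.

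Levels are in TPM, StringTie's transcript abundance per fixed library total, which are scaled for transcript length and library total. Differences are log2 fold changes of TPM + 1 (*Kdm3b*+/- minus WT), so they understate the change of genes with low TPM. They come from a limma fit over the 13652 genes whose TPM averaged 1 or more, with Benjamini-Hochberg adjustment. A gene was called when its adjusted p was under 0.05 and its fold over 1.2. The aligned bases amounted to 4.92 to 6.69 gigabases per library, and 17572 to 17991 genes were above 0. *Kdm3b* itself had a TPM of 9.10 in WT 1, 11.0 in WT 2, 8.30 in *Kdm3b*+/- 1 and 7.90 in *Kdm3b*+/- 2. Both *Kdm3b*+/- libraries were below both WT libraries, and the difference did not pass the test (log2 fold change -0.27, adjusted p = 0.424). At the protein level, which RNA does not measure, the study reported a significant reduction of KDM3B in mutant vermis and flocculus. With 2 mice per group, an exact permutation test of a single gene cannot give a two-sided p below 0.333. In bulk tissue, fewer cells of a type and less RNA per cell cannot be told apart.

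None of the 9 genes was called in the comparison of *Kdm3b*+/- with WT, beside 63 called genes of the 13652 tested (0.461%, with 0.344% lower and 0.117% higher). The genes downstream of the receptors, *Irs1*, *Irs2*, *Akt1*, *Akt2*, *Foxo1* and *Foxo3*, lay below WT in both *Kdm3b*+/- libraries, at 59.2% to 81.2% of the WT mean. The receptor genes *Insr* and *Igf1r* stood at 101% and 107% of the WT mean. Of the 8 tested genes, 5 had an unadjusted p under 0.05, all lower: *Irs2*, *Akt1*, *Akt2*, *Foxo1* and *Foxo3*. *Irs1*, at the same step as *Irs2*, did not. The difference between the receptor genes and the rest was not tested. Among all tested genes, 17% had such a p, 11.5% lower and 5.47% higher. The median log2 fold change of the 8 tested genes was -0.48, and that of all tested genes was -0.07. The groups did not overlap for 7 of the 9 genes, 6 lower and 1 higher in *Kdm3b*+/-, beside 51.3% of all tested genes (32% lower and 19.2% higher). The study's own list of 509 differentially expressed (DEX) genes, drawn from these same libraries, holds *Irs2*, *Akt2* and *Foxo1*, so their direction here is not independent evidence. The study used DESeq2 on counts, a different test from the fit on TPM used here.

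**Figure D1:**
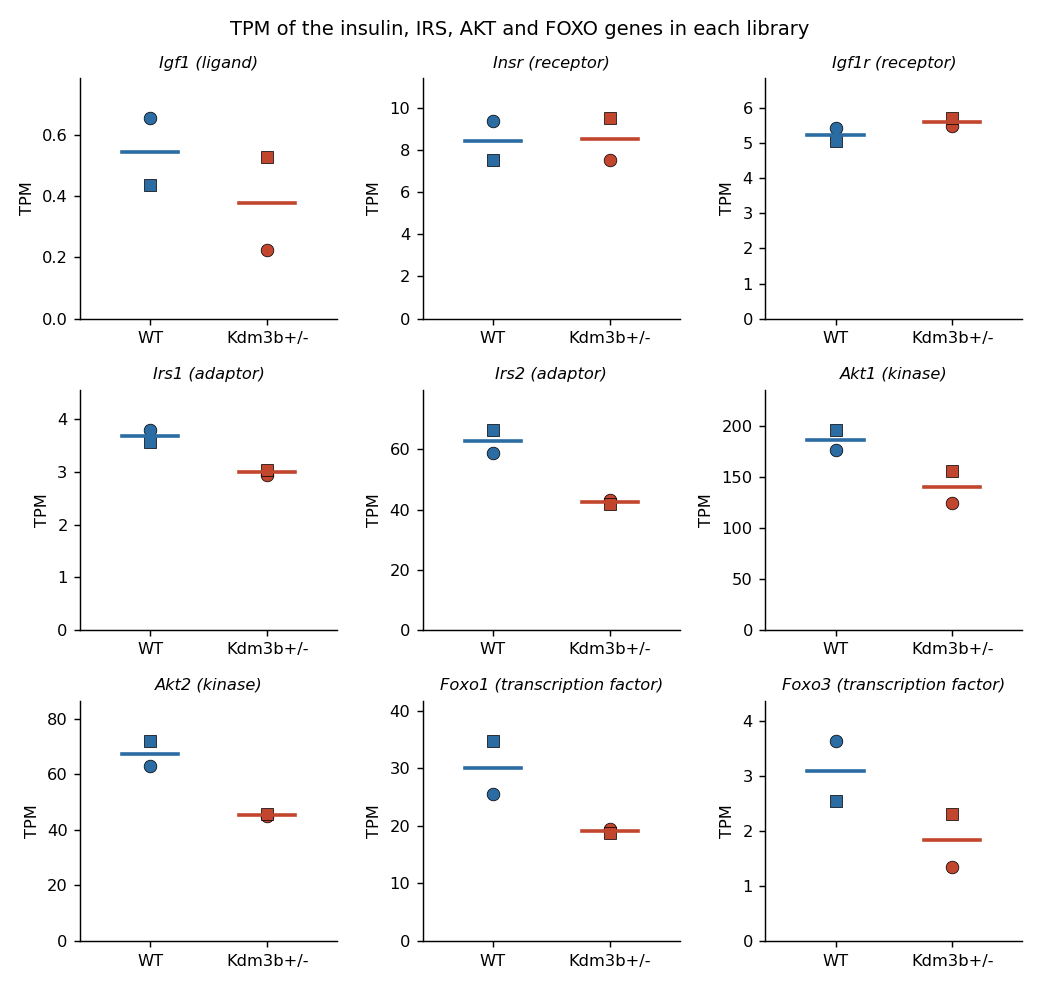
TPM of the 9 genes in each library, with a panel and a linear axis of its own for each gene, circles for mouse 1 and squares for mouse 2 of each group and a bar for the group mean (n = 2). The *Kdm3b*+/- points of Irs1, Irs2, Akt1, Akt2, Foxo1 and Foxo3 all lie below both WT points, those of Igf1 and Insr overlap with WT, and those of Igf1r lie above WT.

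The levels spanned a wide range, and the TPM scale permits comparison between genes because it is per length. *Akt1* was highest with a mean TPM of 163 over the 4 libraries, followed by *Akt2* (56.3), *Irs2* (52.6) and *Foxo1* (24.6). Lower means were found for *Insr* (8.48), *Igf1r* (5.42), *Irs1* (3.34), *Foxo3* (2.46) and *Igf1* (0.461). Every library gave this same order on the TPM scale. On the deposited coverage per gigabase, *Akt2* lay below *Irs2* and *Foxo1* in every library, so the place of *Akt2* depends on the scale. The ranges over the 4 libraries overlapped between the neighbours *Akt2* and *Irs2* and between the neighbours *Irs1* and *Foxo3*, and not between the other neighbours.

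*Igf1* (Gene ID 16000, chr10:87858265-87937047, plus strand) encodes IGF-1, the main ligand of IGF1R. Its TPM was 0.653 in WT 1, 0.436 in WT 2, 0.225 in *Kdm3b*+/- 1 and 0.528 in *Kdm3b*+/- 2. The groups overlapped, and *Igf1* was the gene of the 9 that fell under the TPM minimum. Its mean base coverage was 0.367 to 0.995 per library, so a difference in *Igf1* could not be resolved at this depth. Without the minimum, its log2 fold change was -0.17 (95% interval -0.53 to 0.19). Of the other ligand genes, *Ins1* and *Ins2*, which encode insulin, were listed at 0 in all 4 libraries.

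*Insr* (Gene ID 16337, chr8:3150922-3279617, minus strand) encodes the insulin receptor. Its TPM was 9.37 in WT 1, 7.51 in WT 2, 7.55 in *Kdm3b*+/- 1 and 9.49 in *Kdm3b*+/- 2. Each group held one library near the low value and one near the high value, so the groups overlapped fully. The means were 8.44 ± 1.32 and 8.52 ± 1.38 (SD, n = 2), with a log2 fold change of 0.01 (SE 0.18, 95% interval -0.40 to 0.43, limma adjusted p = 0.980). The sign of this difference turned when WT 2 (-0.13) or *Kdm3b*+/- 2 (-0.14) was left out.

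*Igf1r* (Gene ID 16001, chr7:67952257-68233667, plus strand) encodes the IGF-1 receptor, a close relative of the insulin receptor with which it can form hybrids. Its TPM was 5.42 in WT 1, 5.05 in WT 2, 5.49 in *Kdm3b*+/- 1 and 5.70 in *Kdm3b*+/- 2. It was the gene of the 9 with both *Kdm3b*+/- libraries above both WT libraries, by a narrow margin over WT 1. On the log2 scale the difference was 0.08 (SE 0.17, 95% interval -0.30 to 0.46, limma adjusted p = 0.832). *Insr* made up 63.3% and 59.8% of the summed receptor TPM in WT and 57.9% and 62.5% in *Kdm3b*+/- (exact permutation p = 0.667, two-sided, n = 2 per group).

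The adaptor genes differed widely in level, and both lay lower in the *Kdm3b*+/- libraries. *Irs1* (Gene ID 16367, chr1:82233105-82291439, minus strand) encodes the adaptor best known from muscle and fat. Its TPM was 3.81 in WT 1, 3.56 in WT 2, 2.94 in *Kdm3b*+/- 1 and 3.04 in *Kdm3b*+/- 2. WT and *Kdm3b*+/- did not overlap, with means of 3.68 ± 0.172 and 2.99 ± 0.0685 (SD, n = 2). The log2 fold change of -0.23 did not pass the test (SE 0.18, 95% interval -0.63 to 0.17, limma adjusted p = 0.518).

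*Irs2* (Gene ID 384783, chr8:10986964-11008430, minus strand) encodes the adaptor known to be induced by FOXO and by fasting. Its TPM was 58.9 in WT 1, 66.6 in WT 2, 43.1 in *Kdm3b*+/- 1 and 41.8 in *Kdm3b*+/- 2. Both *Kdm3b*+/- libraries were close together and well below WT, and the mean TPM was 62.8 ± 5.42 in WT and 42.5 ± 0.928 in *Kdm3b*+/- (SD, n = 2), or 67.7% of WT. This gave a log2 fold change of -0.55 (SE 0.14, 95% interval -0.87 to -0.23), with an unadjusted p of 0.00352 and a limma adjusted p of 0.146, and 4.67% of the tested genes had a lower log2 fold change. With the replicate number as a block, the adjusted p was 0.0432. The gene overlaps 9530052E02Rik on the opposite strand, and whether the counting used the strand is not given in the sources used here. That gene's TPM was 0.516 to 0.757, far below the TPM of *Irs2*.

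*Irs2* supplied 93.9% and 94.9% of the summed *Irs1* and *Irs2* TPM in WT and 93.6% and 93.2% in *Kdm3b*+/-. The difference was -1.01 percentage points (exact permutation p = 0.333, two-sided, the smallest that 2 against 2 mice can give). The third adaptor gene of the family, *Irs4*, was listed at 0 in all 4 libraries.

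The start regions of *Irs1* and *Irs2* are shown because each holds the same motifs close together, and *Irs4* is added because its region does too. The spacing differs, since the motifs overlap in *Irs1* and do not in *Irs2* and *Irs4*. RefSeq windows of 300 bases, from 250 bases before to 50 bases after each start site (GRCm38.p6), were searched on both strands for the E-box CACGTG and the insulin response element TGTTTTG. These letters are drawn in capitals. Where the letters overlap, as at the first site of *Irs1*, one run of capitals covers both. The stretches lie at chr1:82291445-82291574 for *Irs1*, chr8:11008940-11008993 for *Irs2* and chrX:141725338-141725391 for *Irs4*, all on the minus strand.
Irs1: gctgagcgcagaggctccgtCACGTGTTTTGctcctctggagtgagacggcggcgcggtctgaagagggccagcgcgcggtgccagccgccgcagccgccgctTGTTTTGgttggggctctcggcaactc
Irs2: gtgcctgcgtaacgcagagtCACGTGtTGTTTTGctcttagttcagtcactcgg
Irs4: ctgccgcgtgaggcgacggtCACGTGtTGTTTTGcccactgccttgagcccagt

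In *Irs1*, the E-box began 115 bases before the start site and the overlapping element 111 bases before it, with a second element 32 bases before it. In *Irs2*, the E-box began 44 bases and the element 37 bases before the RefSeq start site. The deposited coordinates start *Irs2* at chr8:11008430, downstream of that whole window (chr8:11008880-11009179). In *Irs4*, the distances were 154 and 147 bases. Of 32851 windows of 27025 genes, 7.15% held the E-box, 6.28% the element and 134 windows (0.408%) both. In 9 windows of 8 genes (0.0274% of windows), the 2 motifs began within 10 bases of each other, and *Irs1*, *Irs2* and *Irs4* were 3 of these 8 genes. The distance of 10 bases and the addition of *Irs4* were chosen after the sequences were seen. A match describes the letters only and is no evidence that a factor binds there.

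The kinase genes lay lower in both *Kdm3b*+/- libraries. *Akt1* (Gene ID 11651, chr12:112653821-112674884, minus strand) encodes the AKT kinase known mainly for growth and survival. Its TPM was 177 in WT 1, 196 in WT 2, 125 in *Kdm3b*+/- 1 and 155 in *Kdm3b*+/- 2. The groups did not overlap, though the gap between WT 1 and *Kdm3b*+/- 2 was smaller than the spread within *Kdm3b*+/-. The log2 fold change was -0.42 (SE 0.15, 95% interval -0.75 to -0.08), with an unadjusted p of 0.0196 and a limma adjusted p of 0.225. It was -0.26 without *Kdm3b*+/- 1 and -0.23 after a correction for transcript length and GC content. The short microRNA gene *Mir6939* lies within *Akt1* on the same strand, with a TPM of 0.536 to 1.83.

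*Akt2* (Gene ID 11652, chr7:27591552-27640826, plus strand) encodes the AKT kinase most tied to insulin-driven glucose uptake. Its TPM was 62.8 in WT 1, 72.1 in WT 2, 44.9 in *Kdm3b*+/- 1 and 45.5 in *Kdm3b*+/- 2. The *Kdm3b*+/- libraries were nearly equal and well below WT, with means of 67.4 ± 6.55 in WT and 45.2 ± 0.440 in *Kdm3b*+/- (SD, n = 2), or 67.0% of WT. The log2 fold change was -0.56 (SE 0.14, 95% interval -0.88 to -0.24), with an unadjusted p of 0.00314, the lowest of the 9 genes, and a limma adjusted p of 0.142. With the replicate number as a block, the adjusted p was 0.0382. After the correction for length and GC content, the log2 fold change was -0.33.

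For *Akt2*, the deposited coverage was less than its FPKM gives. Coverage per gigabase was 0.278 of the FPKM in WT 1, a ratio that was 1 for 6 of the 9 genes, 0.941 for *Akt1* and 0.633 for *Igf1*. Coverage per gigabase was 7.88 in WT 1, 8.62 in WT 2, 5.74 in *Kdm3b*+/- 1 and 5.71 in *Kdm3b*+/- 2. The *Kdm3b*+/- mean by coverage was 69.4% of WT, and the groups did not overlap on either scale.

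The start regions of both kinase genes are shown because each gene has a window with a forkhead motif, TGTTTAC or TATTTAC, of the kind FOXO proteins are known to bind. The motif stood in 1 of the 2 windows of *Akt1* and in 1 of the 4 windows of *Akt2*. Of all windows, 6.54% held at least one of these motifs on either strand. The stretches, with the motif in capitals, lie at chr12:112675019-112675065 (minus strand) for *Akt1* and at chr7:27591330-27591376 (plus strand) for *Akt2* (GRCm38.p6, RefSeq). In *Akt2*, the motif reads on the opposite strand.
Akt1: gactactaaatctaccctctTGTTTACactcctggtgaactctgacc
Akt2: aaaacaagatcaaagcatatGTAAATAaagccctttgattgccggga

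The motif began 161 bases before the start site in *Akt1* and 202 bases before it in *Akt2*. The 12 windows of the 8 genes with a window held no other match to the 3 motifs besides those given above for *Irs1* and *Irs2*. No window was used for *Insr*.

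Both transcription factor genes lay lower in the *Kdm3b*+/- libraries. *Foxo1* (Gene ID 56458, chr3:52268337-52350109, plus strand) encodes the FOXO factor best known from liver metabolism. Its TPM was 25.4 in WT 1, 34.8 in WT 2, 19.4 in *Kdm3b*+/- 1 and 18.8 in *Kdm3b*+/- 2. WT and *Kdm3b*+/- did not overlap, and WT 2 stood well above the rest. The means were 30.1 ± 6.59 and 19.1 ± 0.456 (SD, n = 2), or 63.4% of WT. Its log2 fold change was -0.61 (SE 0.18, 95% interval -1.01 to -0.22), with an unadjusted p of 0.00677 and a limma adjusted p of 0.172. It was -0.40 without WT 2.

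*Foxo3* (Gene ID 56484, chr10:42185786-42276742, minus strand) encodes the FOXO factor tied to stress resistance and to autophagy. Its TPM was 3.64 in WT 1, 2.54 in WT 2, 1.35 in *Kdm3b*+/- 1 and 2.31 in *Kdm3b*+/- 2. *Kdm3b*+/- 2 was only just below WT 2, so the groups barely separated. Its log2 fold change was -0.54 (SE 0.23, 95% interval -1.07 to -0.01), with an unadjusted p of 0.0459 and a limma adjusted p of 0.286. It was -0.29 without *Kdm3b*+/- 1 and -0.34 without WT 1. Its mean base coverage was 3.57 to 8.07 per library, with the lowest mean of the 8 tested genes.

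*Foxo1* supplied 87.5% and 93.2% of the summed *Foxo1* and *Foxo3* TPM in WT and 93.5% and 89.0% in *Kdm3b*+/- (exact permutation p = 0.667, two-sided, n = 2 per group). The other FOXO genes, *Foxo4* and *Foxo6*, were under the TPM minimum.

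**Figure D2:**
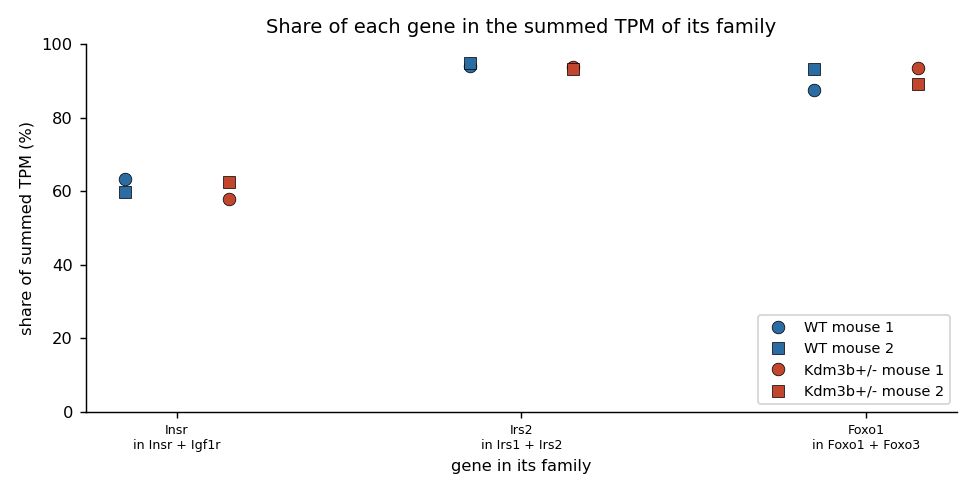
Share of the summed TPM of a gene family, in percent, that each named gene supplied in each library, with circles for mouse 1 and squares for mouse 2. In the 3 pairs shown, Irs2 stayed between 93.2% and 94.9% of the sum with Irs1, Insr between 57.9% and 63.3% of the sum with Igf1r, and Foxo1 between 87.5% and 93.5% of the sum with Foxo3.

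**Figure D3:**
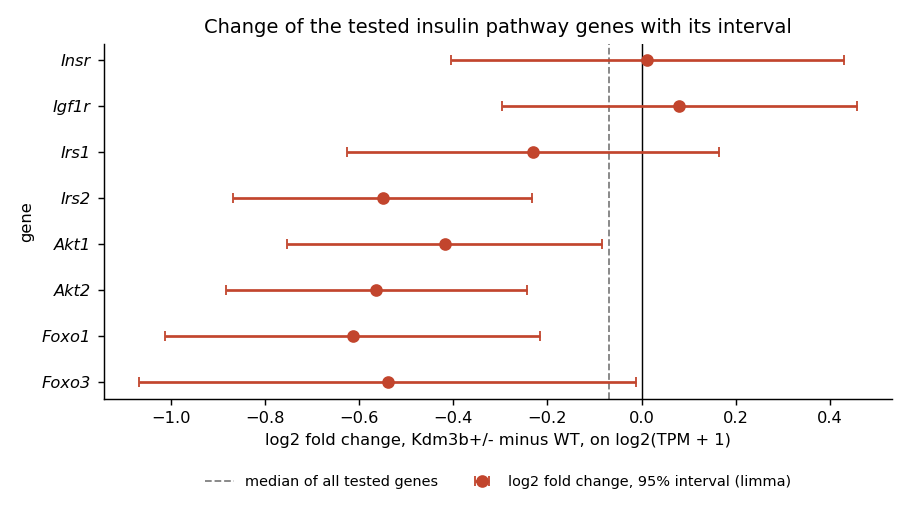
Log2 fold change of TPM + 1 (*Kdm3b*+/- minus WT) of the 8 tested genes, with points for the estimate and bars for its unadjusted 95% interval. The intervals of Irs2, Akt1, Akt2, Foxo1 and Foxo3 lie below 0, and those of Insr, Igf1r and Irs1 cross it.

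The 3 tested genes outside the group whose pattern over the 4 libraries was closest to that of *Akt2* were *Zfp346*, *Rin2* and *Mtmr14*. Their Euclidean distances, on log2(TPM + 1) centred on each gene's mean, were 0.0201, 0.0264 and 0.0280. *Irs2* was the closest gene of the group (0.0489), *Foxo1* followed at 0.183, and *Insr* and *Igf1r* were the most distant. With 4 points per gene, this is a description of these libraries.

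The wider pathway was described with 85 other genes, of which 73 were tested. A single gene of these, *Cdkn1a*, was called, and it fell. At an unadjusted p under 0.05, 14 were lower and 1 was higher in *Kdm3b*+/-, beside 11.5% and 5.47% of all tested genes. The median log2 fold change of the 73 was -0.14. The groups did not overlap for 43 of the 73, 30 lower and 13 higher, beside 51.3% of all tested genes (32% lower and 19.2% higher).

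Among the ligand and receptor genes, *Igf2* had a log2 fold change of 0.21 and *Igf2r*, which clears IGF-2 from the cell surface, one of 0.10. Of 6 tested IGF binding protein genes, 1 had an unadjusted p under 0.05, *Igfbp3*, with a TPM of 9.68 and 5.14 in WT and 4.45 and 3.91 in *Kdm3b*+/- (log2 fold change -0.65, limma adjusted p = 0.253, and -0.25 without WT 1 or -1.05 without WT 2). The median of these 6 was -0.04.

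Of 7 tested adaptor genes, 2 had an unadjusted p under 0.05, both lower. *Sh2b2*, an adaptor that binds the insulin receptor, had a TPM of 3.52 and 3.09 in WT and 1.99 and 0.961 in *Kdm3b*+/- (log2 fold change -0.83, limma adjusted p = 0.168, with -0.52 without *Kdm3b*+/- 2 and -0.51 by coverage per gigabase). *Shc1*, which links receptors to the RAS pathway, had a TPM of 6.44 and 8.45 in WT and 4.42 and 5.69 in *Kdm3b*+/- (log2 fold change -0.48, with -0.30 without WT 2 and -0.28 after the correction for length and GC content). The median of the 7 was -0.17.

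None of the 6 tested PI3K subunit genes had an unadjusted p under 0.05, and their median was -0.20. Of 6 tested genes of the AKT activator list, *Rictor*, a core subunit of mTORC2, had such a p (32.9 and 34.8 against 25.5 and 28.1 TPM, log2 fold change -0.33, and -0.21 with quantile normalization). Of 11 tested negative regulators, *Inpp5k*, a lipid phosphatase, had such a p (124 and 133 against 97.5 and 95.9 TPM, log2 fold change -0.41, limma adjusted p = 0.191, and -0.22 after the correction for length and GC content).

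Of 8 tested AKT substrate genes, *Bad*, which promotes cell death unless AKT phosphorylates it, had an unadjusted p under 0.05 and was the one such gene with a higher value (87.7 and 69.3 against 103 and 97.1 TPM, log2 fold change 0.36, limma adjusted p = 0.279, and 0.19 without WT 2). None of 8 tested genes of the mTORC1 arm had such a p, and their median was -0.12. Of the 3 glucose transporter genes, 2 had such a p and all were lower, with a median of -0.38. *Slc2a1*, the transporter of the blood-brain barrier and glia, had a TPM of 165 and 196 in WT and 136 and 139 in *Kdm3b*+/- (log2 fold change -0.38, limma adjusted p = 0.226, and -0.18 after the correction for length and GC content). *Slc2a4*, which encodes the insulin-responsive transporter GLUT4, had a TPM of 7.09 and 5.23 in WT and 3.97 and 3.90 in *Kdm3b*+/- (log2 fold change -0.52, limma adjusted p = 0.233, with -0.34 without WT 1 and -0.32 after that correction).

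**Figure D4:**
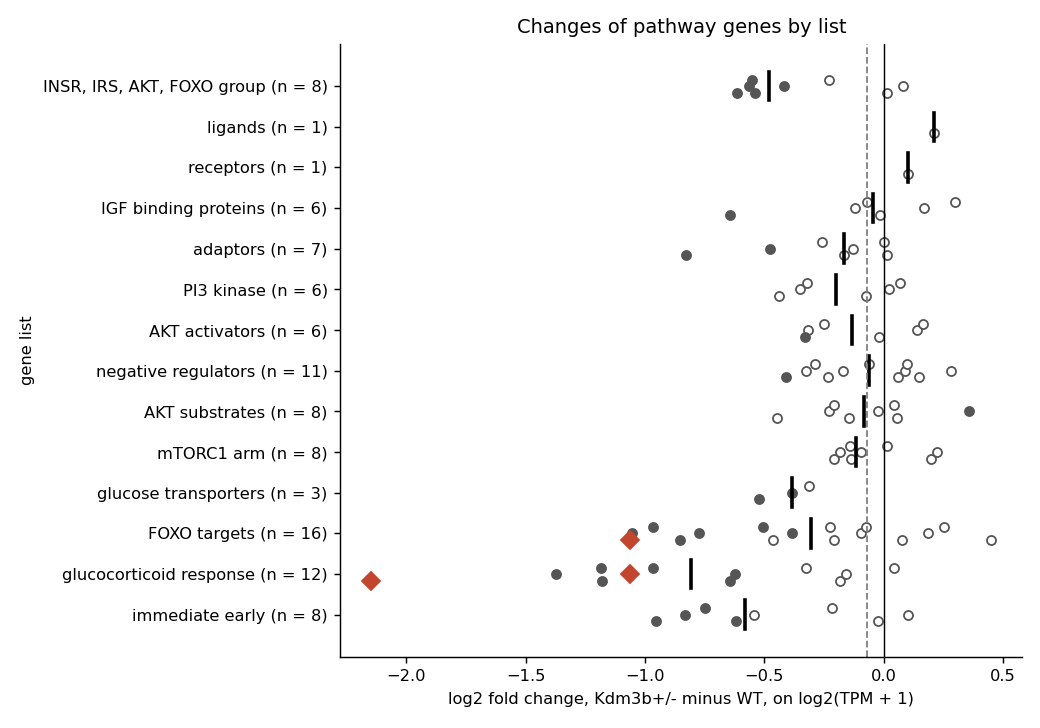
Log2 fold change of TPM + 1 (*Kdm3b*+/- minus WT) of each tested gene, 1 row per gene list, with filled points for an unadjusted p under 0.05, a red diamond for a called gene, a black bar for the list median and a dashed line for the median of all tested genes (-0.07). The FOXO targets and the glucose transporters have medians of -0.31 and -0.38, and the called genes are Cdkn1a, which stands in the rows of FOXO targets and of glucocorticoid response, and Sult1a1 in the latter row.

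The list of known FOXO target genes held the lowest single log2 fold changes of the pathway lists. It also held the highest, 0.45 for *Fbxo32*. Of its 16 tested genes, 7 had an unadjusted p under 0.05, all lower, beside 11.5% lower among all tested genes, and the median was -0.31. The groups did not overlap for 14 of the 16, 11 lower and 3 higher, beside 32% and 19.2% of all tested genes. In all, 4 of the 19 listed genes (*Cdkn1a*, *Txnip*, *Pdk4* and *Pnpla2*) are in the study's own list of 509 DEX genes from these libraries.

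*Cdkn1a* encodes p21, an inhibitor of the cell cycle. Its TPM was 82.3 in WT 1, 71.9 in WT 2, 42.3 in *Kdm3b*+/- 1 and 31.1 in *Kdm3b*+/- 2. Both *Kdm3b*+/- libraries were far below WT, and the log2 fold change was -1.06 (SE 0.17, 95% interval -1.46 to -0.67, limma adjusted p = 0.0413). The call was lost under 10 of the 18 alternatives, with FPKM (adjusted p = 0.0884) and with median-ratio scaling (0.0680) among them.

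*Pdk4*, a kinase that limits glucose oxidation, had a TPM of 6.13 and 8.10 in WT and 3.21 and 3.03 in *Kdm3b*+/- (log2 fold change -0.97, limma adjusted p = 0.0805). *Pnpla2*, the lipase that starts triglyceride breakdown, had a TPM of 78.9 and 61.0 in WT and 32.9 and 43.7 in *Kdm3b*+/- (log2 fold change -0.85, limma adjusted p = 0.106). *Txnip*, an inhibitor of glucose uptake, had a TPM of 17.8 and 14.7 in WT and 9.72 and 8.38 in *Kdm3b*+/- (log2 fold change -0.77, limma adjusted p = 0.109). The groups did not overlap for any of these 3 genes, and the gap between them was wider than the spread within either group for *Pdk4* and *Txnip*.

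*Bcl6*, a transcriptional repressor, had a TPM of 28.0 and 31.5 in WT and 21.2 and 8.85 in *Kdm3b*+/-, with a low value in *Kdm3b*+/- 2 (log2 fold change -1.05, limma adjusted p = 0.177). Its log2 fold change was -0.47 without *Kdm3b*+/- 2, -1.64 without *Kdm3b*+/- 1 and -0.64 by coverage per gigabase. *Sesn1*, a stress-induced inhibitor of mTORC1, had a TPM of 216 and 254 in WT and 175 and 155 in *Kdm3b*+/- (log2 fold change -0.50, limma adjusted p = 0.160, and -0.34 after the correction for length and GC content). *Ccng2*, which encodes a cyclin of resting cells, had a TPM of 169 and 192 in WT and 159 and 119 in *Kdm3b*+/- (log2 fold change -0.38, limma adjusted p = 0.276), and the log2 fold change was -0.18 without *Kdm3b*+/- 2 and -0.59 without *Kdm3b*+/- 1. Other well-known targets had intervals that included 0, among them *Fbxo32* (log2 fold change 0.45), *Cdkn1b* (0.25), *Sod2* (0.19), *Cat* (0.08) and *Gadd45a* (-0.07). The TPM of *Fbxo32* was 2.42 and 2.32 in WT and 2.93 and 4.41 in *Kdm3b*+/-.

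Several FOXO targets also respond to other signals. *Cdkn1a* and *Pdk4* stand in a list of 12 glucocorticoid-responsive genes with a median of -0.81. Of the 12, 8 had an unadjusted p under 0.05, all lower, beside 11.5% lower among all tested genes. The called genes of that list were *Cdkn1a* and the sulfotransferase gene *Sult1a1*, both lower, beside 0.344% called lower among all tested genes. The summed TPM of the list was 2487 and 2135 in WT and 1929 and 1457 in *Kdm3b*+/-. Without *Cdkn1a* and *Pdk4*, 14 FOXO targets were tested, 5 had an unadjusted p under 0.05, none was called and the median was -0.22. The part of glucocorticoid-responsive genes in the FOXO target values was not tested.

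All 10 granule cell markers were above the TPM minimum (median log2 fold change 0.10), and their summed TPM was 3606 to 4279 per library. For 12 Purkinje cell markers the median was -0.50, with 4 lower at an unadjusted p under 0.05, beside 11.5% of all tested genes. Their summed TPM was 5139 and 3282 in WT and 3240 and 2739 in *Kdm3b*+/-. WT 1 stood apart in that sum, and none of the 12 Purkinje markers was at 0. *Aldoc* alone made up most of the sum in every library (3146 and 2468 in WT, 2134 and 1824 in *Kdm3b*+/-). The sum therefore mainly follows that gene and does not describe the rest of the list. Among the other markers, WT 2 lay below both *Kdm3b*+/- libraries, between them or above both, depending on the gene. The groups did not overlap for 4 of the 12, all lower, beside 32% lower among all tested genes. For 8 tested immediate early genes, which follow neuronal activity, the median was -0.58, and 7 had a log2 fold change below 0. Of these, 4 were lower at an unadjusted p under 0.05, beside 11.5% of all tested genes. One of the 4, *Egr1* (-0.95), starts at chr18:34861207, close to the end of *Kdm3b* at chr18:34839370. The part of this location in its value was not tested. The summed TPM of the list was 406 and 574 in WT and 359 and 329 in *Kdm3b*+/-. The part of Purkinje cells and of immediate early activity in the *Irs2*, *Akt2* and *Foxo1* values was not tested.

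The other marker lists had medians between -0.26 and 0.58. They were interneurons (-0.26), Bergmann glia and astrocytes (-0.13, with *Aqp4* called higher), oligodendrocytes (-0.06, with *Mobp* called lower), microglia (0.04), endothelial cells (-0.03) and pericytes and fibroblasts (-0.02). Red cell markers had a median of 0.41, and 4 of the 5 had log2 fold changes above 0. The fifth, the globin gene *Hbb-bs*, was at -5.98, with a TPM of 506 in WT 1, 8.08 in WT 2 and under 1 in both *Kdm3b*+/- libraries. Its value is uncertain, since it has near-identical copies that can share its reads, and the cause of this pattern was not tested. The 1 tested marker of 5 for choroid plexus and ependyma was at 0.58. Their part in the results was not tested.

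The differences of the 5 genes with an unadjusted p under 0.05 had the same sign under every alternative setting that gave them a value. Most of this was fixed in advance. The groups did not overlap for these genes, so leaving out 1 library could not change the sign, and the variance settings and the block leave the estimate as it is. The log2 fold change ranged from -0.64 to -0.39 for *Irs2*, from -0.58 to -0.23 for *Akt1*, from -0.66 to -0.33 for *Akt2*, from -0.83 to -0.40 for *Foxo1* and from -0.79 to -0.29 for *Foxo3*.

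**Figure D5:**
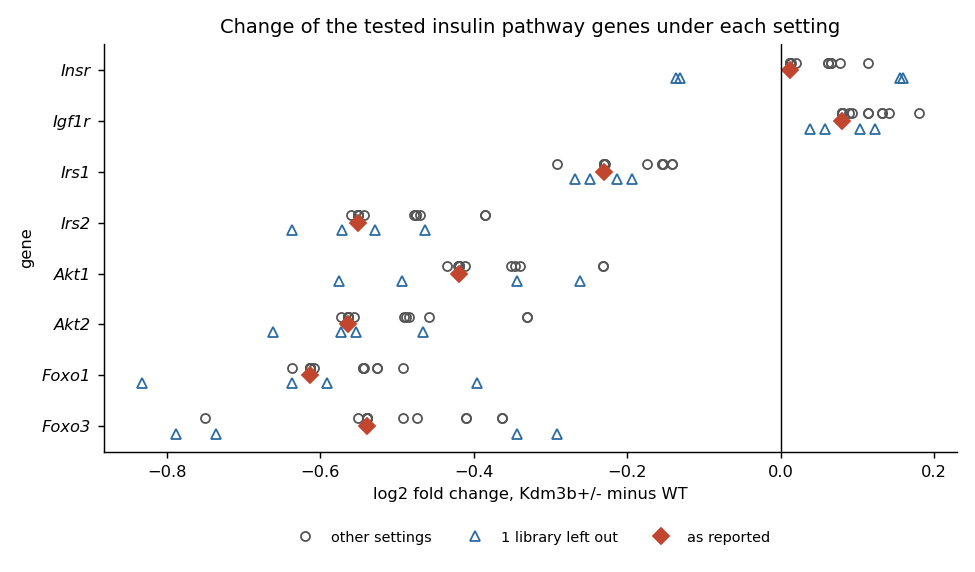
Log2 fold change (*Kdm3b*+/- minus WT) of the 8 tested genes under each setting, with 1 point per setting and gene. The points of Irs1, Irs2, Akt1, Akt2, Foxo1 and Foxo3 stay below 0 under all settings run, and those of Insr lie on both sides of 0. For the former genes the groups did not overlap, so leaving out 1 library could not change the sign.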

How the data were processed

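Bulk RNA of GCE tissue was sequenced from 2 WT and 2 *Kdm3b*+/- mice. The authors trimmed the reads, aligned them with STAR and quantified genes with StringTie, and deposited 1 table per library with TPM, FPKM (scaled for gene length and library depth) and coverage (mean read depth per base) for each gene. Tool versions, genome build and annotation are not given in the sources used here, and the counting's use of strand is not given either. Start coordinates lay within 1 kb of those in GRCm38 for 90.5% of genes compared. TPM are not counts, so no count model was used.

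Entries that share a Gene ID were summed, and a gene was kept where its TPM averaged 1 or more across the libraries. Log2(TPM + 1) was fitted by genotype with limma 3.58.1 (R 4.3.3, eBayes with trend, robust alternative with statmod 1.5.0) and p-values were adjusted by Benjamini-Hochberg over all 13652 genes. The script was tested on simulated data. Shares were compared with a two-sided exact permutation test, and 95% intervals are unadjusted. Each library is 1 mouse. Python 3.11.15, NumPy 2.4.6, pandas 2.3.3 and Matplotlib 3.10.9 served for tables and plots. Promoter windows came from RefSeq tables.

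The 9 genes, the pathway and marker lists and the rules were chosen with earlier results of these data known. Named genes were the 9, *Kdm3b*, pathway genes that were called, had an unadjusted p under 0.05 or were listed at 0, and the 3 genes closest to the one with the lowest p. Other named pathway genes, the called marker genes, *Aldoc*, *Egr1* and *Hbb-bs* were chosen after their values were seen. So were coverage per gigabase as an alternative scale and the counts at an unadjusted p under 0.05 under each alternative. The FOXO target list without glucocorticoid genes was also chosen then. The alternatives were another pseudocount (0.1), FPKM, other TPM minimums, other scalings, the highest entry per gene, other variance settings, the replicate number as a block, a correction for transcript length and GC content (found for 94.5% of genes) and leaving out each library.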

Additional observations from a re-analysis of the deposited data

How the results depend on the processing

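The labels do not say whether the replicate numbers pair the mice. Same-numbered libraries had a correlation of 0.121 between their deviations from the group means, and 0.0229 after the correction for length and GC content. These values cannot settle whether the numbers mark pairs. With the replicate block, *Irs2* (log2 fold change -0.55, adjusted p = 0.0432) and *Akt2* (-0.56, adjusted p = 0.0382) were called, so that 2 of the 9 genes and 6 other pathway genes passed (*Sh2b2*, *Cdkn1a*, *Txnip*, *Pdk4*, *Bcl6* and *Pnpla2*). The block raised the calls over all genes from 63 to 600. With the block and the correction for length and GC content together, none of the 9 genes was called.

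None of the other alternatives called any of the 9 genes. *Insr* reversed to -0.13 without WT 2 and to -0.14 without *Kdm3b*+/- 2, within a range of -0.14 to 0.16 when each library was left out. Of the 8 tested genes, 3 had an unadjusted p under 0.05 after the correction for length and GC content, with or without the block, and 3 to 5 when each library was left out, with 3 without *Kdm3b*+/- 1. The single called pathway gene, *Cdkn1a*, became 0 called genes with FPKM, no TPM minimum, median-ratio scaling, quantile normalization, eBayes without trend, coverage per gigabase or the correction for length and GC content, and the count was 0 to 3 when each library was left out. It was 0 without WT 1 or WT 2 and 3 without *Kdm3b*+/- 1. These fits leave 1 mouse in a group, which is assumed to vary like the other group. Of these fits, the one without *Kdm3b*+/- 1 had the lowest share of all genes with an unadjusted p under 0.05. The count of 3 in that fit therefore does not describe the 9 genes alone. After the correction for length and GC content, the share of all genes was 15.3%, and 15.9% with the block added, beside 17% in the main fit.

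Over all genes, the calls numbered 1 with no TPM minimum, 38 with FPKM, 37 without trend, 14 by coverage per gigabase and 21 to 188 when each library was left out (21 without WT 1, 28 without WT 2, 121 without *Kdm3b*+/- 1 and 188 without *Kdm3b*+/- 2). Of the main calls 47 were lower and 16 higher, and with median-ratio scaling 38 were lower and 23 higher. The causes of these changes were not tested.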
